A study of Homo sapiens with 3 samples.

Results

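Forkhead factors are transcription factors that share a DNA-binding forkhead domain, and 49 genes of the family were followed among 27307 genes measured in teratoma RNA. They were chosen by name: a FOX symbol with a subfamily letter from A to S and a number, with a protein-coding RefSeq transcript as the entry of highest mean level for that symbol. The data were 3 RNA-seq libraries of tumours formed by H1, an established human embryonic stem cell line, in SCID-beige mice, an immunodeficient strain. Each mouse received 1000000 cells by subcutaneous injection according to the labels, tumours were frozen after 3 to 4 weeks, and their polyadenylated RNA was sequenced. The labels number the replicates, hence teratoma 1, 2 and 3 here, and name no treatment or genetic change and no comparison group. Whether they came from separate tumours or mice is not stated, so the spread between them may be technical, and no test between groups was possible. The sources used here name no step that removed reads of the mouse host, and the part of such reads in the values below was not tested.

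The forkhead domain is a winged helix, and its recognition helix lies in the major groove of DNA. Members differ in where they are made. FOXA proteins open chromatin in endoderm, FOXC and FOXF proteins pattern mesoderm and mesenchyme, FOXJ1 switches on motile cilia, FOXM1 drives mitotic genes, and FOXO proteins answer to insulin signalling. In a teratoma, which holds derivatives of the germ layers side by side, the family thus spans markers of many lineages as well as factors made in most cells.

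Levels are given in RPKM, in which reads are divided by transcript length and library total, so that genes can be compared. The totals implied by the deposited values were 43605458 to 46243199 reads, so that 1 RPKM was 119 to 126 reads at the median member length of 2725 bases. Each library held markers of several lineages: all 12 neuron genes and all 13 fibroblast and mesenchyme genes listed here reached 1 RPKM in every library. Teratoma 3 stood apart in its makeup. The summed level of the neuron genes was 883, 1121 and 2973 RPKM in teratomas 1, 2 and 3, that of the fibroblast and mesenchyme genes 2115, 1710 and 473, and that of 10 endothelium genes 54, 55.7 and 15.3. These marker levels moved with many of the results below, and their part in them was not tested. In bulk RNA, fewer cells of a type and less RNA per cell cannot be told apart.

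The sequence that reads DNA is the feature the family shares, and it shows how alike members are whose levels differed widely. A stretch of 16 codons that opens the recognition helix was found once in 45 of the 49 members, by translating the matched GENCODE transcript and searching for tryptophan, any residue, asparagine, any residue, isoleucine or valine, arginine, histidine, any residue and leucine. The stretches below are coding exon sequence of the GRCh38 reference, a later build than the hg19 used for the tables, and the capitals mark the 4 codons from arginine through histidine to leucine.
FOXA3 (chr19:45872486-45872533, plus strand): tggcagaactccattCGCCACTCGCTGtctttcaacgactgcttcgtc
FOXC1 (chr6:1610809-1610856, plus strand): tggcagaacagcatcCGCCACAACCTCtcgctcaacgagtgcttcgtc
FOXC2 (chr16:86567681-86567728, plus strand): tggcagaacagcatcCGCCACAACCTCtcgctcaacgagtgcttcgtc
FOXD1 (chr5:73447811-73447858, minus strand): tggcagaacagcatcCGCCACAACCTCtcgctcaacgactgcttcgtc
FOXF1 (chr16:86510843-86510890, plus strand): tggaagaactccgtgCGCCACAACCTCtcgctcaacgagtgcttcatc
FOXF2 (chr6:1390377-1390424, plus strand): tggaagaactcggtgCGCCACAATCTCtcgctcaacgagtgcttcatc
FOXQ1 (chr6:1313191-1313238, plus strand): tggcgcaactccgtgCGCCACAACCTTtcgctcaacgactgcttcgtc
FOXN3 (chr14:89411958-89412005, minus strand): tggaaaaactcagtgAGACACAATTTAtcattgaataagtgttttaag
These members were shown because the differences between libraries turned on the first 7, among others, and FOXN3, which differed little between libraries, is shown for contrast. FOXC1 and FOXC2 matched at all 48 bases although they lie on different chromosomes, and FOXF1 and FOXF2 matched at 46. Across all 990 pairs of members with the stretch, a median of 12 of 16 residues and 35 of 48 bases were the same, and 25 distinct peptides were encoded. The commonest was shared by 10 members, FOXD1, FOXD2, FOXD3, FOXD4, its 5 copies and FOXL1. The stretch was not found by this search in FOXB1, FOXB2, FOXH1 and FOXR2.

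Most of the family was present. A gene was called detected when it reached at least 1 RPKM in all 3 libraries, and 31 members (63.3%) were, beside 52.7% of all genes and 66.5% of genes with a protein-coding entry, so the share was near the background. A further 14 members (28.6%) stayed under 1 RPKM in every library, beside 39.5% of all genes and 25.4% of genes with a protein-coding entry, and FOXD4, FOXL1, FOXL2 and FOXN4 lay on both sides of that level. The median member stood at 5.19, 4.13 and 2.23 RPKM in teratomas 1, 2 and 3, while the median gene with a protein-coding entry stood at 4.44, 4.57 and 4.10. The summed level of the family was 468, 368 and 242 RPKM.

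**Figure D1:**
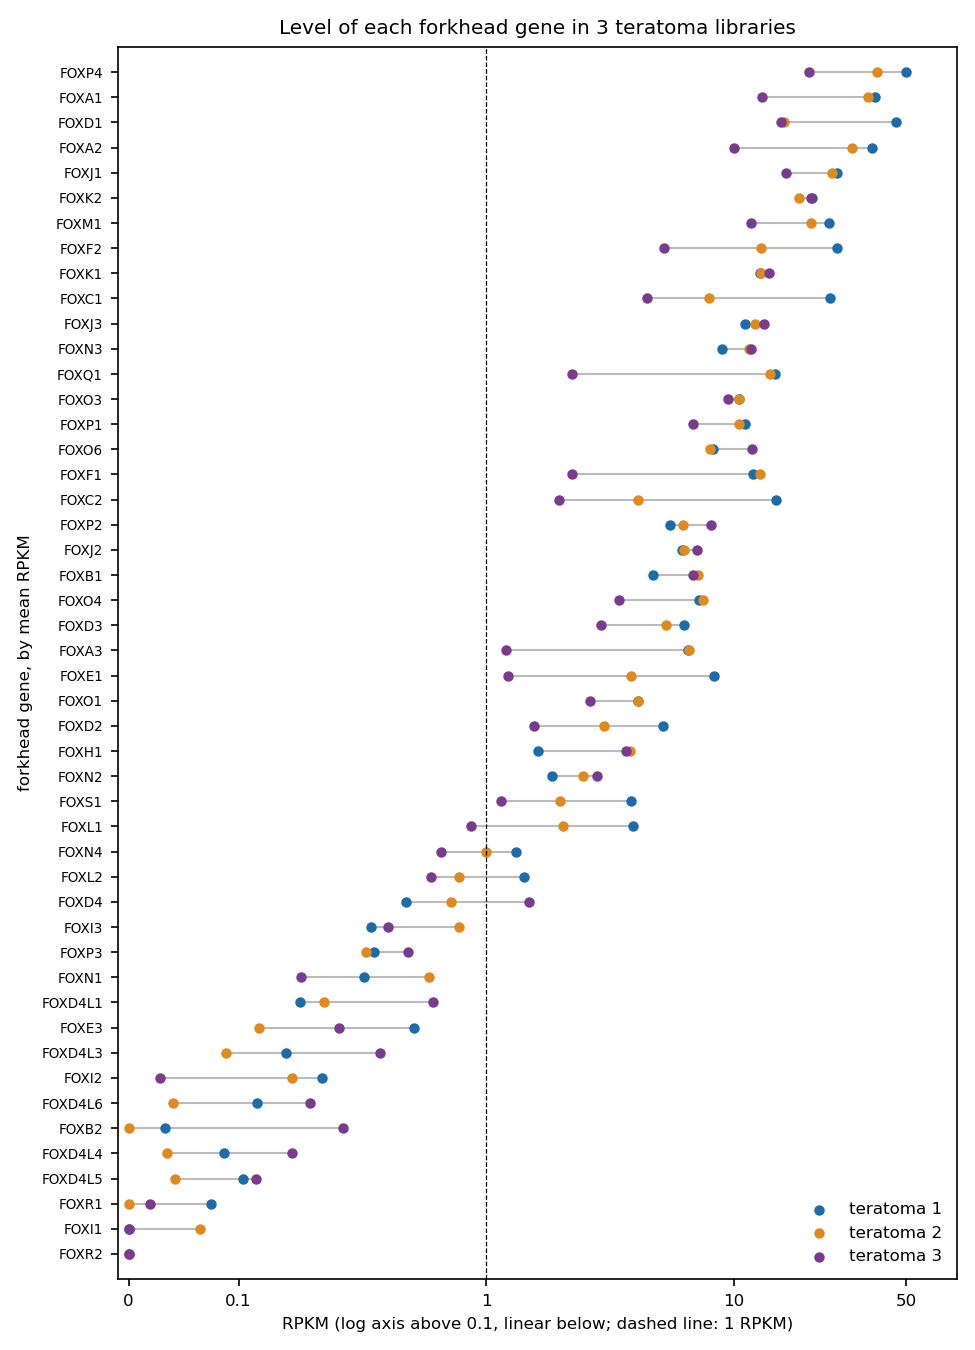
Level of 48 of the 49 forkhead genes in RPKM (horizontal axis, logarithmic above 0.1 and linear below), with 1 point per teratoma library and genes ordered by mean level. The dashed line is 1 RPKM; FOXP4 is at the top with 49.9, 38 and 20.2 RPKM and FOXR2, with no read, at the bottom. Among genes at or above 1 RPKM in all 3 libraries, the widest gaps belong to those whose teratoma 3 point lies lowest.

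The members that differed between libraries did so in 1 direction. A member was counted as differing when its highest and lowest library were at least 1 apart on the log2(RPKM + 1) scale, which understates differences of low genes, and when the 95% exact Poisson counting intervals of those libraries lay apart. By this rule 14 of 49 members (28.6%) differed, beside 11.7% of all genes and 15.5% of genes with a protein-coding entry. All 14 were lowest in teratoma 3 (28.6% of members, beside 6.88% of all genes), except that FOXD1 was lowest in teratoma 2 under both other scalings tried, median-of-ratios size factors and the same total over kept entries. This direction was also the commoner one among all genes that differed, of which 59% were lowest and 37.6% highest in teratoma 3. None of the 14 was highest in teratoma 3, beside 4.39% of all genes. Once the levels were rescaled to the same total, 3 further members, FOXD4, FOXD4L1 and FOXH1, differed and were highest there. Under that scaling 17.5% of all genes differed. FOXH1 then stood at 5.43, 13.3 and 13.4 in teratomas 1, 2 and 3, so that teratomas 2 and 3 were nearly equal. With median-of-ratios size factors none of these 3 differed. The 14 members were FOXA1, FOXA2, FOXA3, FOXC1, FOXC2, FOXD1, FOXD2, FOXE1, FOXF1, FOXF2, FOXL1, FOXP4, FOXQ1 and FOXS1. Teratoma 1 was the highest for 12 of them (beside 4.5% of all genes) and teratoma 2 for 2, FOXA3 and FOXF1 (beside 2.78%). Between pairs of libraries, teratoma 1 exceeded teratoma 3 by at least 1 for the same 14 members (beside 5.76% of all genes), and teratoma 2 exceeded teratoma 3 for 7 (beside 5.02%). The count was 7 without teratoma 1 (beside 7.28% of all genes), 3 without teratoma 3 (beside 1.46%) and 14 without teratoma 2 (beside 9.97%).

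**Figure D2:**
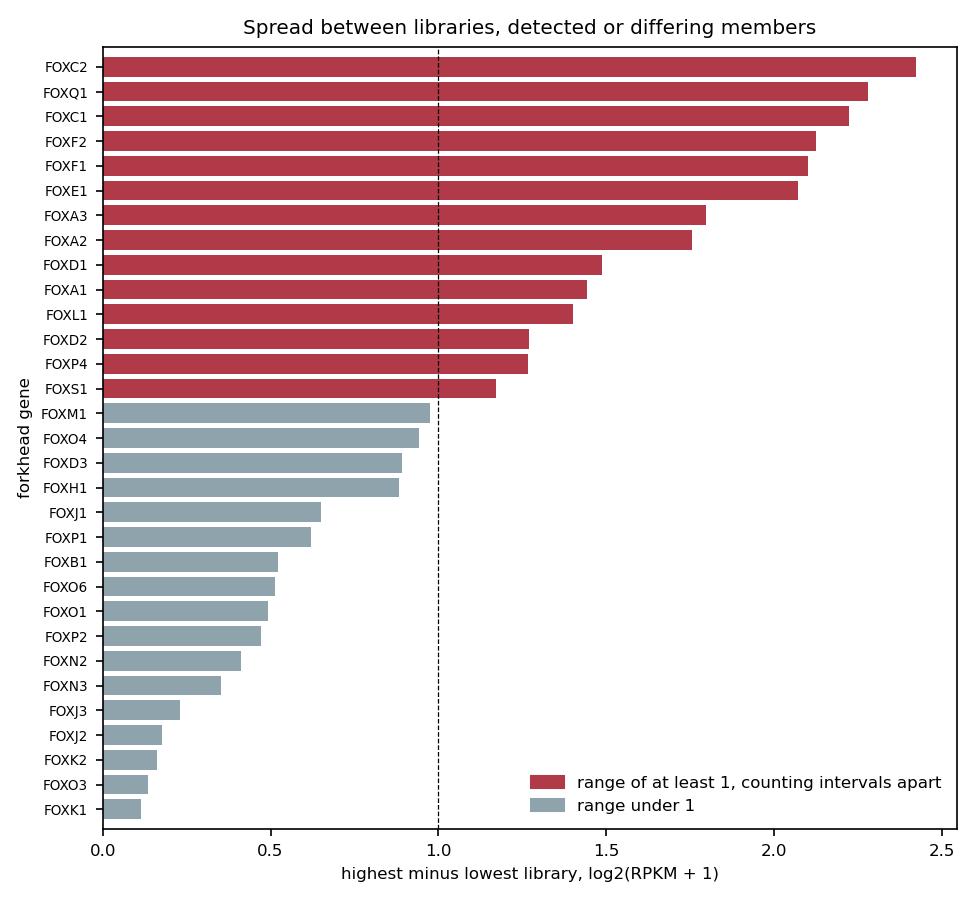
Difference between the highest and the lowest library on the log2(RPKM + 1) scale for forkhead genes that were detected or differed between libraries, with 1 gene not shown. Red bars are the 14 members that differed by at least 1 with counting intervals apart, led by FOXC2 at 2.42; grey bars are under 1, down to FOXK1 at 0.11.

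The FOXA genes, pioneer factors of liver, gut, lung and floor plate, were high in teratomas 1 and 2 and lower in teratoma 3. FOXA1 stood at 37.2, 34.9 and 13.0 RPKM in teratomas 1, 2 and 3 (mean 28.4 ± 13.3, SD, n = 3). FOXA2 stood at 36.4, 30.2 and 10.1 RPKM (25.6 ± 13.8). FOXA3, the member most tied to liver and gut, stood at 6.55, 6.64 and 1.20 RPKM (4.79 ± 3.11). For each of them teratomas 1 and 2 lay close together and teratoma 3 lay below both, by 2.85-fold for FOXA1, 3.61-fold for FOXA2 and 5.46-fold for FOXA3 against teratoma 1. FOXA1 and FOXA2 were near parity in each library, with a ratio of 1.02, 1.15 and 1.29, whereas FOXA1 exceeded FOXA3 by 5.68, 5.25 and 10.9 times. All 13 genes of a list of FOXA partners and targets in liver and yolk sac were detected, and 11 differed between libraries, each lowest in teratoma 3. They did not follow the FOXA order in the other libraries. AFP, the fetal plasma protein, stood at 452, 1889 and 159 RPKM and APOA1, an apolipoprotein, at 371, 1205 and 109, so that teratoma 2 exceeded teratoma 1 there while FOXA1 and FOXA2 did not. Floor plate genes, a neural source of FOXA2, were mixed: 7 of 9 were detected and 3 differed, 2 of them lowest in teratoma 3. SHH stood at 30.9, 27.7 and 9.72 RPKM, in the order of FOXA2. FERD3L stood at 2.43, 7.91 and 2.26 RPKM, while NKX2-2 was highest in teratoma 3, at 10.6, 11.5 and 27.4. The leading genes of the list, NTN1, a netrin, and SPON1, a spondin, did not differ. They stood at 70.5, 122 and 99.3 RPKM and at 33.8, 55.5 and 44.5.

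FOXC genes, which act in paraxial mesoderm, kidney, eye and vessels, stood higher in teratoma 1 than in both others, and FOXC2 had the widest gap of all members, 2.42 on the log2(RPKM + 1) scale. FOXC1 stood at 24.5, 7.94 and 4.45 RPKM (12.3 ± 10.7). FOXC2 stood at 14.9, 4.13 and 1.96 RPKM (7 ± 6.93). The 95% counting interval of FOXC2 was 14.1 to 15.8 RPKM in teratoma 1 and 1.66 to 2.31 in teratoma 3. Both genes had the same order of libraries, and FOXC1 was 1.64, 1.92 and 2.27 times FOXC2. FOXS1, a factor of pericytes and sensory neurons whose stretch encodes the same residues as the FOXC genes, stood at 3.84, 1.99 and 1.15 RPKM (2.32 ± 1.38). FOXC1, FOXC2 and FOXD1 were the 3 members for which teratoma 1 exceeded teratoma 2 by at least 1 on the log2(RPKM + 1) scale, which 0.604% of all genes did. Of 10 paraxial mesoderm genes only 2 were detected and 7 differed, 6 of them highest in teratoma 1 and lowest in teratoma 3. TWIST1, a factor of mesenchyme, stood at 28.7, 12.6 and 5.89 RPKM, while UNCX, a homeobox gene of somites and of neurons, ran the other way at 16.6, 18.1 and 40.7.

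The FOXF genes and FOXL1, which lie downstream of hedgehog signals in the mesenchyme of gut and lung, were also lowest in teratoma 3. FOXF1 stood at 11.9, 12.8 and 2.23 RPKM (9.01 ± 5.89). FOXF2 stood at 26.3, 13 and 5.25 RPKM (14.8 ± 10.6). Teratoma 2 matched teratoma 1 for FOXF1 but not for FOXF2, so that the ratio of FOXF2 to FOXF1 was 2.20, 1.01 and 2.36. FOXL1, of the mesenchyme under gut epithelium, stood at 3.94, 2.05 and 0.87 RPKM (2.28 ± 1.55). FOXQ1, an epithelial factor of stomach and skin appendages, stood at 14.7, 14.1 and 2.23 RPKM (10.3 ± 7.02) and thus shared the pattern of FOXF1. In a list of 12 hedgehog-responsive mesenchyme genes 9 were detected, 7 differed, and each of the 12 was lowest in teratoma 3. The hedgehog receptor PTCH1 stood at 32.4, 33.9 and 25.4 RPKM, a narrower spread than that of the FOXF genes, and the ligand BMP4 at 19.9, 19.4 and 5.01.

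Several members that neighbour each other on a chromosome were lowest in the same library, teratoma 3. This was not particular to neighbours, since all 14 members that differed and 20 of the 31 detected members were lowest there. FOXE3 and FOXD2, adjacent on chromosome 1, were lowest in teratoma 2 and in teratoma 3. In the RefSeq annotation of GRCh38, FOXF2 and FOXC1 on chromosome 6 follow each other with no protein-coding gene between them, and FOXQ1 precedes FOXF2 with 1 between. On chromosome 16, FOXC2 and FOXL1 are next to each other and FOXF1 is separated from FOXC2 by 1 protein-coding gene. All 6 genes were lowest in teratoma 3, yet the FOXC genes were 3.08-fold and 3.61-fold lower in teratoma 2 than in teratoma 1, whereas FOXQ1 and FOXF1 differed little there (1.04 and 0.93 for teratoma 1 over teratoma 2). Of 23 transcripts listed as neighbours or relatives 17 were measured, 4 were detected and 6 differed, each lowest in teratoma 3. FOXCUT, FOXC2-AS1 and FENDRR ran in the order of the adjacent gene. FOXCUT, next to FOXC1, stood at 3.71, 1.07 and 0.47 RPKM, and FOXC2-AS1, antisense to FOXC2, at 6.24, 2.26 and 1.22. FENDRR, which starts beside FOXF1, stood at 2.07, 2.63 and 0.566, highest in teratoma 2 like FOXF1. Since no strand setting is given, reads of FOXC2 and FOXC2-AS1 cannot be told apart where they overlap, and 4.03% of the 50-base words of FOXC2 occurred in FOXC2-AS1.

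**Figure D3:**
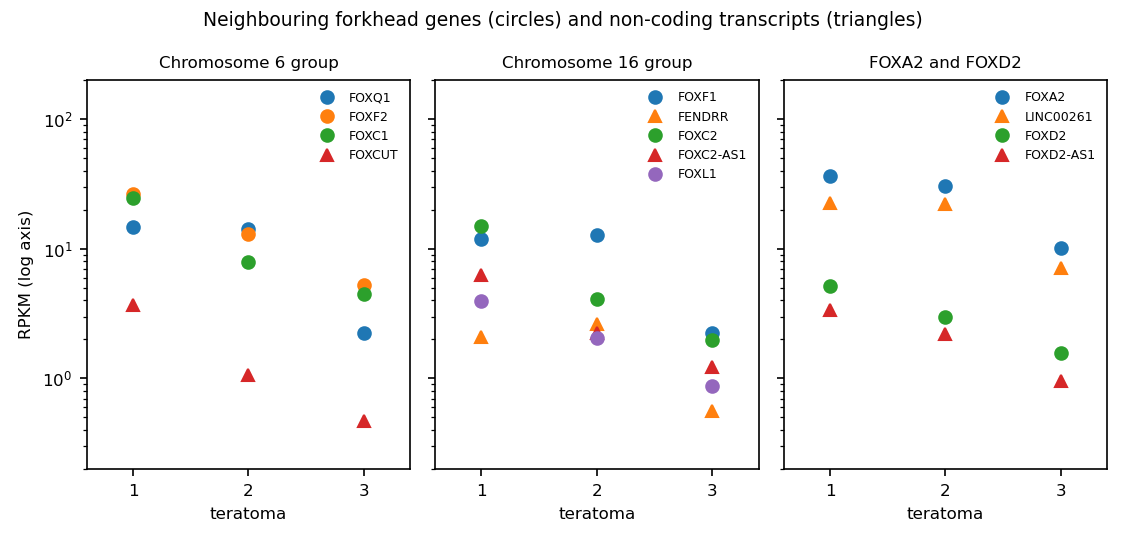
RPKM (logarithmic vertical axis) in each teratoma library for forkhead genes (circles) and adjacent non-coding transcripts (triangles), by chromosomal group; libraries have no order. FOXCUT lies near 3.71, 1.07 and 0.47 below FOXC1 at 24.5, 7.94 and 4.45, and LINC00261 at 22.4, 22.2 and 7.10 below FOXA2.

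Promoter windows of the 3 genes on chromosome 6 run from 250 bases before to 50 after the RefSeq start on GRCh38.p14. They are shown because these adjacent genes were low together in teratoma 3, as were members on other chromosomes. Every CG pair is in capitals.
FOXQ1 (chr6:1311848-1312147, plus strand): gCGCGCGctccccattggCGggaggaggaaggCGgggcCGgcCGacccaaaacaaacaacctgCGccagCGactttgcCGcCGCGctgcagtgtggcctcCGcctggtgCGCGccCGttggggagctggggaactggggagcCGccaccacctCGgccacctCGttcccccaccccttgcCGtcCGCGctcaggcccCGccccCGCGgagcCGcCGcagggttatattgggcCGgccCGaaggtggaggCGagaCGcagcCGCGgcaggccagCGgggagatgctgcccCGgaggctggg
FOXF2 (chr6:1389326-1389625, plus strand): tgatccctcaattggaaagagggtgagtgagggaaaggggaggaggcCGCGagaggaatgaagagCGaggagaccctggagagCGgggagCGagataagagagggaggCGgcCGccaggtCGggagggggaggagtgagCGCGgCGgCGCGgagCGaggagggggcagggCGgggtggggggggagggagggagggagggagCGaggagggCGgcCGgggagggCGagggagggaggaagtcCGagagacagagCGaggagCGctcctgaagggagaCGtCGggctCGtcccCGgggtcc
FOXC1 (chr6:1609665-1609964, plus strand): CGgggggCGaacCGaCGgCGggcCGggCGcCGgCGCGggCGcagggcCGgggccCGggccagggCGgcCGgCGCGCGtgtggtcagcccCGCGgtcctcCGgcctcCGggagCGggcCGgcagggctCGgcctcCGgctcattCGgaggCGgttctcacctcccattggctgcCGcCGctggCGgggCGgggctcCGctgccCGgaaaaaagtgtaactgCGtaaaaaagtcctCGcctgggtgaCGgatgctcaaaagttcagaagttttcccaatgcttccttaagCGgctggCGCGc
They held 35, 26 and 40 CG pairs, against a median of 14 over 35116 promoter windows of 300 bases and of 25 over the 49 windows that 38 members had. The steady genes FOXK1 and FOXK2, described further on, each held 55. The forkhead word GTAAACA, searched on both strands, was in none of these 3 windows, in 2 of the 49 member windows (4.08%) and in 3.42% of all windows.

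The remaining neighbours were mixed. LINC00261, beside FOXA2, stood at 22.4, 22.2 and 7.10 RPKM, the highest of them, and was low in teratoma 3 like FOXA2. FOXD2-AS1 stood at 3.39, 2.19 and 0.96 beside FOXD2, and FOXD3-AS1, beside FOXD3, at 4.04, 3.41 and 3. FOXP4-AS1 stood at 1.42, 0.719 and 0.0472 RPKM, in the order of FOXP4. FOXN3-AS1 ran against its neighbour, with 1.41, 0.892 and 0.511 RPKM where FOXN3 was lowest in teratoma 1. FOXL2NB, which has a protein-coding entry, stood at 0.419, 0.246 and 0.242 RPKM, FLJ46906 at 0.951, 0.872 and 0.916 and LINC01082, beside FOXF1, at 0.69, 0.497 and 0, highest in teratoma 1 where FOXF1 was highest in teratoma 2. FOXP1-AS1, LINC01081 and FOXN3-AS2 stayed between 0 and 0.121 RPKM.

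FOXD genes split. FOXD1, a factor of kidney stroma and of retina, was the most abundant of them and stood at 45.3, 16.1 and 15.5 RPKM (25.6 ± 17), so that teratoma 1 alone was high. Teratomas 2 and 3 differed by 1.03-fold for it, and teratoma 2 was its lowest library under both other scalings. FOXD2, of mesenchyme and kidney, stood at 5.19, 2.99 and 1.56 RPKM (3.25 ± 1.82). FOXD3, a factor of neural crest and pluripotent cells, stood at 6.28, 5.32 and 2.93 RPKM (4.84 ± 1.73) and was just under the size counted as differing, at 0.89. Of 9 neural crest genes 8 were detected and 5 differed, 4 of them lowest in teratoma 3. NGFR, the neurotrophin receptor, stood at 34.3, 16.4 and 13.4 RPKM and SOX9 at 49.1, 33.9 and 34. In the list of kidney stroma and kidney field genes 9 of 10 were detected and 3 of the 5 that differed were lowest in teratoma 3. PAX2, a factor of the kidney field, stood at 11.5, 23.5 and 21.3 RPKM.

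FOXD4 and its 5 copies, FOXD4L1, FOXD4L3, FOXD4L4, FOXD4L5 and FOXD4L6, were the low end of the subfamily and ran the other way. FOXD4 stood at 0.475, 0.719 and 1.49 RPKM (0.894 ± 0.529) on 48, 72 and 142 reads. FOXD4L1 stood at 0.178, 0.222 and 0.61 RPKM on 17, 21 and 55 reads, and the other 4 stayed between 0.0349 and 0.372 RPKM on 2 to 36 reads. All 6 were highest in teratoma 3, though none was counted as differing on the scale used. Their values are not separate measurements. Of the 50-base words in the transcripts of FOXD4 and FOXD4L3, 63.1% and 97.5% also occurred in another forkhead gene. For FOXD4L6 and FOXD4L4 the shares were 94.3% and 90.4%. Reads from any copy could be counted for several of them or lost, depending on rules not given in the sources used here.

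Members of specialised epithelia and of germ cells were mostly low. FOXE1, of thyroid, palate and hair follicle, was the exception, with 8.36, 3.85 and 1.23 RPKM (4.48 ± 3.61), a 6.82-fold gap between teratomas 1 and 3. Of 6 thyroid genes 2 were detected: HHEX, also a factor of liver and pancreas, stood at 12.8, 6.12 and 1.84 RPKM and PAX8 at 2.77, 8.79 and 6.89. FOXE3, of the lens, stood at 0.513, 0.121 and 0.255 RPKM, lowest in teratoma 2, unlike FOXD2, its neighbour on chromosome 1 with no protein-coding gene between them. FOXI1, of ionocytes, had 6 reads in teratoma 2 and none in the others, where 3 reads would have been 0.0323 and 0.0342 RPKM. FOXI2 and FOXI3 stayed between 0.0289 and 0.778 RPKM. CFTR, at 9.64, 9 and 2.9 RPKM, alone reached detection among 6 ionocyte genes, followed by ATP6V1B1 at 0.491, 0.664 and 0.13, and 5 of the 6 stayed under 1 RPKM. FOXN1, of thymic epithelium and hair follicles, stood at 0.321, 0.591 and 0.179 RPKM. In the thymic epithelium list 2 of 8 genes were detected, among them CD83 at 5.40, 3.96 and 5.82 RPKM, and 1 gene had no read in any library. FOXR1 stood between 0 and 0.075 RPKM on at most 4 reads. FOXR2, a factor of germ cells and some tumours, had no read in any library, which allows up to 0.0233, 0.0235 and 0.0247 RPKM, the level of 3 reads.

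Gonad and immune members were at the edge of detection. FOXL2, of ovary, pituitary and eyelid, stood at 1.42, 0.778 and 0.597 RPKM. Of 8 gonad genes 3 were detected, led by AMH at 22.8, 19.7 and 19.1 RPKM and FST, an activin binding protein made by many tissues, at 24.5, 25.8 and 9.74. FOXP3, the factor of regulatory T cells, stood at 0.351, 0.326 and 0.483 RPKM on 34 to 48 reads. None of the 6 regulatory T cell genes was detected. IKZF2 stood at 1.14, 1.22 and 0.927 RPKM and CD4 at 1.37, 1.10 and 0.334.

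Of the members with roles in the nervous system, FOXB1, FOXP2 and FOXO6 were not lowest in teratoma 3, while FOXN4 was. Members given in other paragraphs that also act in neural tissue or neural crest, among them FOXA2, FOXD3, FOXP1 and FOXS1, were lowest there too. FOXB1, of mammillary body, thalamus and spinal cord, stood at 4.71, 7.21 and 6.84 RPKM (6.25 ± 1.35). FOXP2, a factor of cortical, striatal and cerebellar neurons that also acts in lung, stood at 5.55, 6.26 and 8.08 RPKM (6.63 ± 1.31). FOXO6, the FOXO gene most tied to brain, stood at 8.29, 8.01 and 11.9 RPKM (9.39 ± 2.15). FOXB1 was highest in teratoma 2, and FOXP2 and FOXO6 in teratoma 3, but the gaps were 0.47 to 0.52 on the log2(RPKM + 1) scale, below the 1.95 that was the median over the neuron list. FOXB2 had 2, 0 and 15 reads. FOXN4, of retina and spinal interneurons, stood at 1.32, 1.00 and 0.657 RPKM and thus was highest in teratoma 1.

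Gene lists around the neural members gave their setting. In the telencephalon list 12 of 16 genes were detected and 5 differed, 2 of them highest and 1 lowest in teratoma 3, with DLX1 at 29.1, 25.1 and 44.4 RPKM and DLX5 at 33.6, 22.4 and 34.8. Of 10 neural progenitor genes 3 differed, each highest in teratoma 3. The most abundant of the list did not differ: SOX2 stood at 86.8, 87.1 and 107 RPKM and NES at 94, 87.8 and 98.4. In the list for retina and V2 interneurons 5 of 10 were detected. PTF1A, which the pancreas also makes, stood at 25.8, 3.72 and 2.34 RPKM. Teratoma 1 alone was high for it, as for FOXD1, but with wider gaps. In the motor neuron list 6 of 10 were detected, with MNX1 at 17, 13.3 and 3.45 RPKM and ISL1 at 8.14, 6.09 and 9.02.

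FOXP genes diverged within the subfamily. FOXP4 was the most abundant member of the family, with 49.9, 38 and 20.2 RPKM (36 ± 15), and ranked 1469 among all genes. FOXP1 stood at 11.1, 10.5 and 6.87 RPKM (9.5 ± 2.29). Of the 50-base words of its matched transcript, 91% also occurred in the GENCODE gene AC097634.4. That transcript has 1948 bases, while the entry that gave the level has 6385, so the share does not cover the whole entry. FOXP2 was highest in teratoma 3, where FOXP1 and FOXP4 were lowest. The ratio of FOXP4 to FOXP2 was thus 8.99, 6.07 and 2.50 and that of FOXP1 to FOXP2 2.00, 1.68 and 0.85. FOXP1, FOXP2 and FOXP4 encode the same 16 residues in the recognition helix with 37 to 44 of 48 bases the same. Shorter entries gave other values: FOXP1 had 9 protein-coding entries, 8 of which had 10.2 to 11.1 RPKM in teratoma 1, while the 892-base entry had 3.76. Entries share reads, so these are not levels of separate isoforms.

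**Figure D4:**
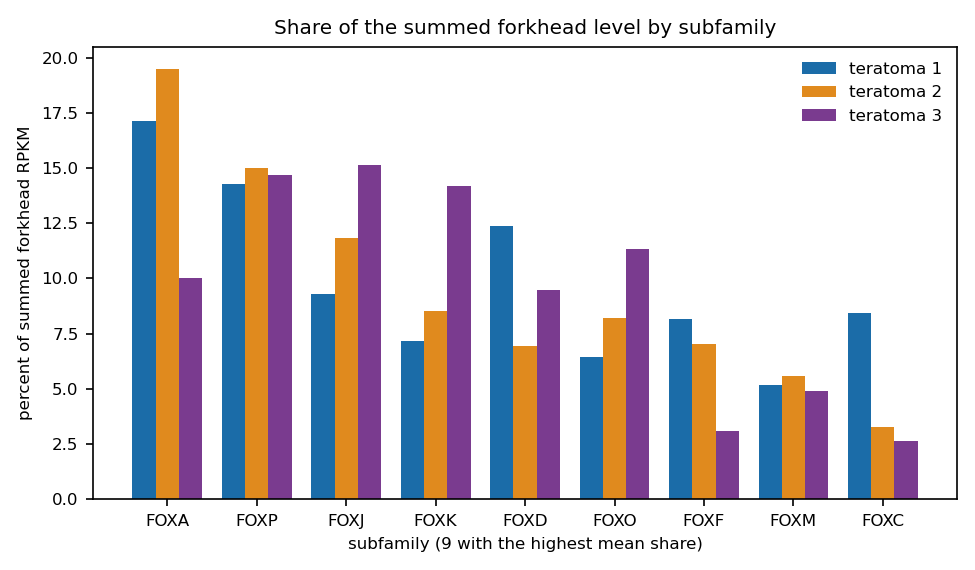
Share of the summed forkhead RPKM held by the 9 subfamilies with the highest mean share (bars, 1 per teratoma library, percent). FOXA holds 17.1 and 19.5 percent in teratomas 1 and 2 and 10 percent in teratoma 3, FOXC 8.41 percent in teratoma 1 and 2.65 in teratoma 3, FOXK 7.16 and 14.2 percent in these, and FOXP between 14.3 and 15.

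The makeup of the family differed between libraries. FOXA genes held 15.6% ± 4.93 of the summed forkhead level, FOXP genes 14.7% ± 0.346, FOXJ genes 12.1% ± 2.93 and FOXK genes 9.96% ± 3.74 (SD, n = 3). With all entries of a gene summed, which counts shared reads repeatedly, the order turned: FOXP genes held 33.5%, FOXA genes 11.4% and FOXK genes 4.99%. In teratoma 1 the FOXA genes led with 17.1%, and in teratoma 3 the FOXJ genes led with 15.1%. The FOXK genes held 7.16% in teratoma 1 and 14.2% in teratoma 3, but their level was steady and summed to 33.5, 31.3 and 34.4 RPKM.

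Several members differed little between libraries. FOXK1 and FOXK2, forkhead repressors that work with SIN3A corepressor complexes in most cells, stood at 12.8, 12.9 and 14 RPKM (13.2 ± 0.64) and at 20.7, 18.4 and 20.5 (19.9 ± 1.26). Of the 50-base words of FOXK2, 21.9% also occurred in the GENCODE gene AC124283.1. FOXJ3 and FOXJ2, broadly made members without the cilium role of FOXJ1, stood at 11.2, 12.2 and 13.3 (12.2 ± 1.05) and at 6.19, 6.29 and 7.12 RPKM (6.53 ± 0.513). FOXO3 stood at 10.5, 10.5 and 9.5 RPKM (10.2 ± 0.578). These 5 of the 31 detected members had a range under 0.25 on the log2(RPKM + 1) scale, a smaller share than the 28% of detected genes. The median range was 0.891 for detected members and 0.422 for detected genes. FOXN3 and FOXN2, checkpoint-related factors made in many tissues, stood at 8.98, 11.5 and 11.7 and at 1.85, 2.46 and 2.80 RPKM, lowest in teratoma 1. All 8 FOXK partner genes were detected, led by BAP1 at 32.1, 32.7 and 30.8 RPKM and DVL1 at 25.5, 25.8 and 26.6.

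FOXO genes, which insulin and AKT signals keep out of the nucleus, were all detected. Beside FOXO3 and FOXO6, FOXO4 stood at 7.24, 7.52 and 3.43 RPKM (6.07 ± 2.29) and FOXO1 at 4.09, 4.13 and 2.64 (3.62 ± 0.848). The gap of FOXO4, 0.94, was just under the size counted, and teratoma 3 was its lowest library. FOXO3 shares sequence with FOXO3B, a non-coding entry that was no member here: 16.6% of its 50-base words occurred there, and FOXO3B was listed at 6.93, 6.15 and 6.67 RPKM, so reads in the shared stretches cannot be told apart. All 14 upstream regulators were detected and 1 differed, led by YWHAZ, a 14-3-3 protein that binds phosphorylated FOXO, at 131, 141 and 191 RPKM and AKT1 at 71.9, 67.7 and 67.2. Of 18 FOXO targets 15 were detected and 2 differed. TXNIP stood at 69.9, 60 and 42.1 RPKM and the cell cycle inhibitor CDKN1B at 38.7, 35.3 and 49.7.

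FOXM1, FOXJ1 and FOXH1 belong to defined programmes. FOXM1 stood at 24.2, 20.6 and 11.8 RPKM (18.9 ± 6.37), a gap of 0.98 that was just under the size counted. All 18 of its partners and mitotic targets were detected and 5 differed, each lowest in teratoma 3, and the summed level was 300.4, 255 and 151 RPKM. TOP2A stood at 32.3, 28.6 and 18.4 RPKM and MYBL2 at 30.5, 25.1 and 11.9. The share of 50-base words of FOXM1 that also occurred in ITFG2, which overlaps it, was 20.7%, so part of its reads could belong to that gene. FOXJ1 stood at 26.1, 25.1 and 16.3 RPKM (22.5 ± 5.41). The 18 listed genes of the motile cilium programme, which include factors that act before or beside FOXJ1, each averaged below 10 RPKM: 11 of 18 genes were detected, their summed level was 55.7, 54.2 and 40.1 RPKM, and the leading genes were ZMYND10 at 9.29, 8.49 and 6.2 and the cofactor RFX3 at 4.78, 5.64 and 7.09. FOXH1, the DNA-binding partner of SMADs in Nodal signalling, stood at 1.61, 3.82 and 3.69 RPKM (3.04 ± 1.24), and 30.2% of its 50-base words occurred in the overlapping gene KIFC2. Of 14 Nodal pathway genes 9 were detected and 6 differed. Of these 6, 5 were lowest in teratoma 3 and 1 in teratoma 1, the lowest library of FOXH1. ACVR1B stood at 26.8, 26.2 and 27.2 RPKM. Of 9 pluripotent cell genes 7 were detected, with LIN28A at 11.2, 31.6 and 9.14 RPKM and DNMT3B at 6.29, 9.40 and 6.63.

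Members also differed in gene structure. In GENCODE 29, 20 members have a transcript of 1 exon, 8 of 2 exons and 21 of 3 or more. Of the 1-exon members 8 of 20 differed between libraries and of those with 2 exons 4 of 8, while of those with 3 or more 2 of 21 did, FOXA2 and FOXP4. Among detected members the median gap on the log2(RPKM + 1) scale was 1.49 for 9 genes of 1 exon and 0.49 for 17 genes of 3 exons or more. Exon number follows subfamily, since relatives share their structure, so these counts are not of independent genes. The 20 members with 1 exon include FOXD4 and its copies, whose values are not separate measurements. Of these 20 members 11 were not detected, beside 3 of the 8 with 2 exons and 4 of the 21 with 3 or more. Shares by exon number over all genes were not computed, so whether the pattern is particular to the family was not tested. The FOXC, FOXD, FOXE, FOXQ and FOXS genes described above all have 1 exon.

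**Figure D5:**
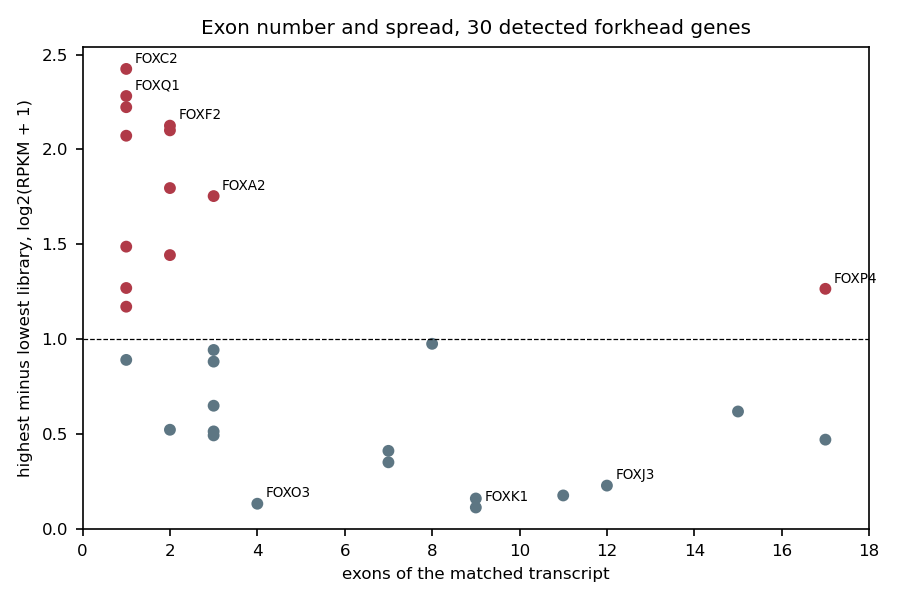
Exon number of the matched GENCODE transcript (horizontal axis) against the difference between the highest and lowest library on the log2(RPKM + 1) scale, for 30 of the 31 detected forkhead genes. Red points differed by at least 1 (dashed line); 7 of the 8 genes shown with 1 exon lie above it, and FOXP4 is the single gene of more than 3 exons that does.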

How the data were processed

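RNA was measured in 3 teratoma libraries, forming 1 group by their titles. Bowtie2 and hg19 are named in the submitters' processing notes. For its version, the counting tool, filters and strand, the sources used here give nothing. Each deposited table lists 59443 RefSeq transcript entries with an RPKM value, a length, a read count and a symbol. The deposited RPKM equals the deposited raw count divided by length and by 1 library total. From these, the entry of highest mean RPKM was kept per symbol, giving 27307 genes. A gene at or above 1 RPKM in each of the 3 libraries was called detected. A gene differed when its libraries were at least 1 apart on log2(RPKM + 1) with exact Poisson intervals (95%) apart. Intervals and the floor of 3 reads cover counting error only. No test between groups was made. Members detected or differing were named, with the leading 2 genes of each list, the floor plate genes that differed and the measured non-coding neighbours. A few genes and sequences under this rule are not reported here. Members and lists were chosen with earlier results of these data known.

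Transcripts came from GENCODE 29 (GRCh38), all 49 matched by their RefSeq accession. Shared words of 50 bases were counted on both strands. Promoters came from RefSeq, and 38 members had a window. The range rule was tested on simulated data. Python 3.11.15, numpy 2.4.6, pandas 2.3.3, scipy 1.17.1 and matplotlib 3.10.9 were used. Alternatives covered detection level, pseudocount, low-value filter, entries per gene, scaling, size of difference and each library left out.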

Additional observations from a re-analysis of the deposited data

How the results depend on the processing

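No paired analysis was possible because all libraries belong to 1 group. With detection at 5 RPKM 16 members were detected and 23 stayed below throughout, and with only genes of a mean of at least 1 RPKM, none (0) stayed under 1. The number of members that differed was 27 with a pseudocount of 0.1 (5 of them highest in teratoma 3), 24 with a difference of 0.5 (2 highest in teratoma 3) and 6 with a difference of 2, all 6 lowest in teratoma 3. It was 3 to 14 when each library was left out, 7 to 14 of them lowest in teratoma 3, a count that has no value without that library. After rescaling to the same total over kept entries, which multiplies values by 3.36 to 3.62, 8 members stayed under 1 throughout and 18 differed, the 14 of the report among them, beside 17.5% of all genes. Of the 18, 14 were lowest in teratoma 3, FOXO4 newly among them and FOXD1 no longer, and 3 were highest there (FOXD4, FOXD4L1 and FOXH1). For FOXH1 teratoma 2 was nearly as high as teratoma 3, at 13.3 beside 13.4. With median-of-ratios size factors the same 14 differed and 13 were lowest in teratoma 3, the exception being FOXD1. The median member level, 2.22 on the log2(RPKM + 1) scale, was 3.13 with the low-value filter, 3.74 after rescaling and 2.04 to 2.75 with each library left out. Summing entries, which counts shared reads several times, moved the mean shares to 33.5% for FOXP, 4.99% for FOXK, 4.90% for FOXD and 3.13% for FOXF, and averaging them gave 14.3% for FOXP. Depth limits members under about 0.1 RPKM, which rest on few reads.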
